A study of Homo sapiens with 12 samples.

Results

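The difference between the effects of resveratrol (RVT) on SZ95 sebocytes under 2 stimuli, LA and PGN, was examined gene by gene, with attention to genes that moved in opposite directions in the 2 arms. SZ95 is an immortalised human cell line from the sebaceous gland, the skin gland that makes sebum. All 12 libraries of the series were used, 3 for each of LA alone, LA plus RVT, PGN alone and PGN plus RVT, and the series describes them as biological replicates. The labels give both stimuli as abbreviations only. They are taken to stand for linoleic acid, a fatty acid that sebocytes store as lipid, and for peptidoglycan, a bacterial wall polymer sensed by innate immune receptors. Every group thus carries a stimulus, the labels give no dose or time, and no untreated cells and no RVT without a stimulus were analysed here. Expression was deposited in TPM, a unit scaled to transcript length and to the library total, in 1 table for LA and another for PGN, so stimulus, table and any batch of the tables cannot be told apart. For this reason every effect of RVT was formed within a table, as a difference of log2(TPM + 1), and the LA effect minus the PGN effect is called the difference of effects. Of 60630 genes in both tables, 15177 had a mean of at least 1 TPM and were tested, and 272 of these were called in both arms with opposite signs.

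Resveratrol is a plant polyphenol known for activating AMP-activated kinase, the cellular energy sensor, and for dampening inflammatory transcription. Peptidoglycan is sensed by Toll-like and NOD receptors, which activate NF-kB and the MAP kinases. These in turn switch on cytokine genes, AP-1 factors and their own inhibitors, among them TNFAIP3. Fatty acids enter sebocytes as fuel and as material for lipid droplets, and unsaturated fatty acids are known to hold back the SREBP factors that drive lipid synthesis. Epidermal growth factor receptor signalling, AP-1 and matrix adhesion mark growing or migrating epithelium, while ZNF750, OVOL1 and ELF3 are factors of epithelial differentiation.

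Promoters of 4 genes from both classes of opposite response are shown because they hold motifs of NF-kB and AP-1, factors known to act downstream of peptidoglycan sensing and of growth factor receptors. They are RefSeq sequences on GRCh38.p14, from 250 bases before to 50 bases after the annotated start, read 5′ to 3′ on the gene's strand. Only matches to the letters searched, given below, are in capitals. The CXCL1 window is chr4:73869143-73869442 (plus strand), with an NF-kB motif that begins 53 bases before the start. The TNFAIP3 window is chr6:137867009-137867308 (plus strand), with an NF-kB motif on the other strand beginning 55 bases before the start. The SPRR1B window is chr1:153030953-153031252 (plus strand), with 2 AP-1 motifs, and the MAB21L4 window is chr2:240896107-240896406 (minus strand), with 1 AP-1 motif.
CXCL1: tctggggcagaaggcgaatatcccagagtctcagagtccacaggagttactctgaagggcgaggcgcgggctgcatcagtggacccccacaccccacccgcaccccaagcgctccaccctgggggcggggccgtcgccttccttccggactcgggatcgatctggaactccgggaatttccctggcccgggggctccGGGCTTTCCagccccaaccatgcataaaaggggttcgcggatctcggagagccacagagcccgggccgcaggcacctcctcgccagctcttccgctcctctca
TNFAIP3: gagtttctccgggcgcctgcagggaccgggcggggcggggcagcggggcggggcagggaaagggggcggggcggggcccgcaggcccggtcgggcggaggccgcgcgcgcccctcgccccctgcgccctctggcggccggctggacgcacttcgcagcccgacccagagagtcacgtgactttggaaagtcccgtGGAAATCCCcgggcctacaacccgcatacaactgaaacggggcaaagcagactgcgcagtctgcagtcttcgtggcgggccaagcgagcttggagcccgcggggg
SPRR1B: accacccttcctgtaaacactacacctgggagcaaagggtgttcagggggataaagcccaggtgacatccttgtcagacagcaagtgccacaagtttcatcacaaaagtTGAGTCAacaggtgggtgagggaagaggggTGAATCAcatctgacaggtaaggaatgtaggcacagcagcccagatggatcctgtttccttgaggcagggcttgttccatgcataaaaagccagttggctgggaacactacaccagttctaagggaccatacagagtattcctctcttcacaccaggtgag
MAB21L4: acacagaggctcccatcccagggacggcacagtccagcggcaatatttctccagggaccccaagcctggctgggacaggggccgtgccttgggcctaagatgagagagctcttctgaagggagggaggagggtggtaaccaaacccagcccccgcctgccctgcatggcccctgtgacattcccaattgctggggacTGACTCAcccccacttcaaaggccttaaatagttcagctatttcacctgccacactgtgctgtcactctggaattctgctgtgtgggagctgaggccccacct

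Searched on both strands, the NF-kB motif GGGNNTTCC was in 13 of 114 matched promoters of genes higher under LA and lower under PGN (11.4%). Longer forms, such as gggaatttcc in the CXCL1 window and ggaaagtccc in the TNFAIP3 window, were neither marked nor counted. GGGNNTTCC was in 10 of 86 of the reverse class (11.6%), in 8.30% of 10478 matched promoters of tested genes, and in 6.6% of all 27305 promoters. The AP-1 motif TGANTCA was in 10 of 114 (8.77%) and 6 of 86 (6.98%), against 4.71% of tested genes and 7.76% of all promoters. The letters TATAAA of the TATA box were in 11 of 114 (9.65%) and 7 of 86 (8.14%), against 5.64% of tested genes and 11.95% of all promoters. Of 5 further motifs searched, the TEAD motif GGAATG was in 11 of 114 and 14 of 86 (10.8% of tested genes, 14.05% of all). The E-box CACGTG was in 8 and 6 (10.1% and 7.43%), and the cyclic AMP response element TGACGTCA in 3 and 0 (3.24% and 1.98%). The grainyhead-like motif AACCNGTT was in 0 and 3 (1.36% and 1.73%), and the sterol regulatory element TCACNCCAC in 0 and 0 (1.14% and 1.15%). The 2 classes thus held the NF-kB motif at nearly the same share. TGACGTCA is no match to TGANTCA, and the windows of the other opposite genes were not in the promoter table used here.

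The deposited TPM of the 12 libraries summed to between 994373 and 997060, and between 14486 and 15444 genes reached 1 TPM. TPM keeps no depth, so sequencing depth is unknown and counting intervals cannot be given. Mitochondrially encoded genes took 13.04 to 13.6% of TPM with LA, 12.1 to 12.4% with LA+RVT, 10.5 to 10.9% with PGN and 9.41 to 10.4% with PGN+RVT. Ribosomal protein genes took 14.5 to 15.02%, 13.1 to 13.3%, 16.1 to 16.4% and 15.2 to 15.8%. All 8 epithelial markers and 10 of 15 sebocyte markers had a mean of at least 1 TPM, while the sebocyte markers AWAT2 and MC5R were at 0 in every library. Of the markers of other cells, 3 of 9 fibroblast, 2 of 7 melanocyte, 2 of 9 immune and 1 of 7 endothelial genes reached 1 TPM, and DCN, TYR, TYROBP and EMCN were at 0. In bulk RNA of this kind, fewer cells of a type and less RNA per cell cannot be told apart.

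Most genes whose response to RVT differed between the stimuli were called in 1 arm only, and fewer moved in opposite directions. With limma and a Benjamini-Hochberg adjusted p under 0.05, 1660 genes were higher with RVT under LA (10.9% of the 15177) and 756 lower (4.98%). Under PGN, 2285 were higher (15.1%) and 985 lower (6.49%). The difference of effects was called for 2240 genes (14.8%), above 0 for 1067 (7.03%) and below 0 for 1173 (7.73%). Of these 2240, 681 were called in the LA arm only, 1001 in the PGN arm only, 135 in both with the same sign and 151 in neither. The remaining 272 (1.79% of genes tested) were the opposite genes, 155 higher under LA and lower under PGN (1.02%) and 117 lower under LA and higher under PGN (0.771%). Another 677 genes (4.46%) were called in both arms with the same sign, so 28.7% of the 949 genes called in both were opposite.

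These splits moved with the scaling of the libraries. With library medians equalised, 1141 genes were higher and 1048 lower under LA and 1354 and 1501 under PGN. Without mitochondrial and ribosomal protein genes in the TPM total, the numbers were 1094 and 1070 under LA, and 1817 and 1150 under PGN. With the trend over GC content and length removed, an alternative chosen after seeing the data, they were 1452 and 1125, and 1552 and 1532. The difference was then above 0 for 1399 genes and below for 1124, and the opposite classes held 244 and 119 genes. They held 191 and 98 with equalised medians and 134 and 144 on the changed total. The count of 272 fell to 173 with each arm fitted on its own 6 libraries, to 181 without a filter on low values and to 178 without LA replicate 2.

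**Figure D1:**
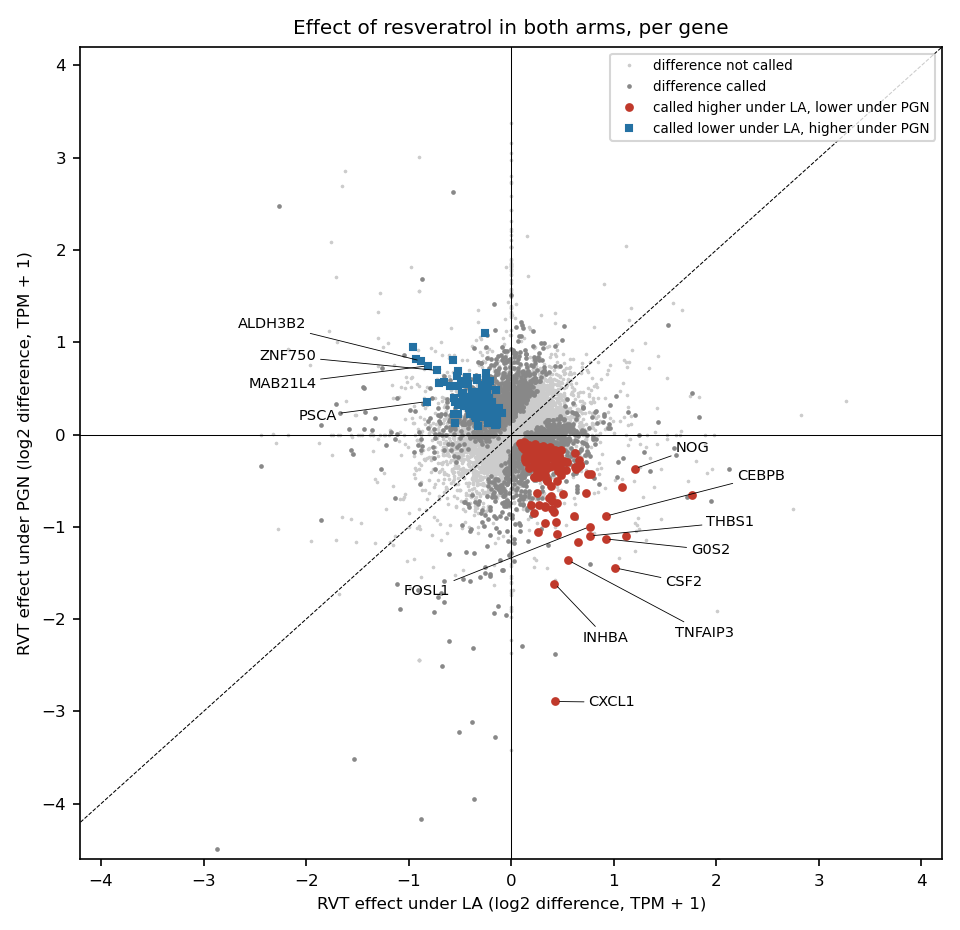
Effect of RVT under LA (horizontal axis) against its effect under PGN (vertical axis), each a log2 difference of TPM + 1, 1 point per tested gene, with 5 genes outside the axes. Red points are the 155 genes called higher under LA and lower under PGN, blue squares the 117 genes of the reverse class, dark grey points other genes with a called difference of effects, and the dashed line marks equal effects.

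In the plot of the effects in both arms, most genes lay near 0 in both. Over all tested genes, called or not, the effects were nearly unrelated (Pearson r = 0.073, with all 4 groups sharing 1 fit, and genes no independent replicates). Of the 949 genes called in both arms, 677 had the same sign. Effects of opposite sign were common as point estimates, at 42.9% of genes tested. The opposite genes were chosen by both arms' tests, so their difference of effects is given as a description. Under LA the effects of the first class ran from 0.09 to 1.77 on the log2 scale (median 0.31) and under PGN from -2.89 to -0.08 (median -0.28). In the second class they ran from -0.96 to -0.09 under LA (median -0.29) and from 0.09 to 1.11 under PGN (median 0.33). The median over all tested genes was 0.04 under LA and 0.06 under PGN. Large opposite effects were few on the scale of TPM + 1, which understates fold changes of low genes. On that scale only 15 genes moved at least 1.5-fold in both arms and 14 at least 2-fold in 1 arm or both. Those that did so in both were 2, CSF2 and the antisense gene AC108863.1, which is listed at 0 in all LA libraries without RVT.

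At the threshold, NUTM2B-AS1 lay just inside (log2 effects 0.35 under LA and -0.34 under PGN, limma adjusted p = 0.0499 and 0.0429), as did UCP2 (-0.56 and 0.40, limma adjusted p = 0.0146 and 0.04999). ZNF787 lay just outside (0.17 and -0.28, limma adjusted p = 0.05002 and 0.00338), and so did QARS1 (-0.31 and 0.21, limma adjusted p = 0.0124 and 0.0503). On the filter, AL354953.1 had a mean of 1 TPM and was tested, and RNU6-1161P had 0.999 TPM and was not.

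Most genes of both classes were protein-coding, 147 of 155 (94.8%) and 110 of 117 (94.0%), against 82.8% of all tested genes. Median TPM over all tested genes ran from 13.8 to 16.8 in the 4 groups, lower than in either class. In 149 genes of the first class and 115 of the second the libraries with and without RVT did not overlap in either arm. Over all tested genes, libraries did not overlap in either arm with opposite signs in 814 (5.36%), a looser rule than the test. The median GC content of the longest transcript was 49.6% in the first class and 56.9% in the second, against 48.7% over tested genes, and the median lengths were 3381, 2358 and 3220.5 bases. Genes lower under LA and higher under PGN were therefore richer in GC and shorter than most, and the part of GC content and length in their calls was examined only by removing the trend, which kept 134 of 155 and 74 of 117 genes.

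Levels of the opposite genes, set side by side across the tables, had a common pattern. In the first class PGN libraries had the higher mean TPM than LA libraries for 148 of 155 genes, against 32.9% of all tested genes. With RVT this held for 73 of 155, against 33.2% of all tested genes. In the second class LA was above PGN for 107 of 117 genes without RVT, against 10116 of all 15177 tested genes. PGN+RVT was above LA+RVT for 66 of the 117, against the same 33.2%. The median log2 ratio of PGN over LA went from 0.62 without to -0.03 with RVT in the first class and from -0.57 to 0.05 in the second. Over all tested genes it was -0.19 and -0.16. Median TPM in LA, LA+RVT, PGN and PGN+RVT was 56.3, 70.3, 90.1 and 69.7 in the first class and 51.6, 42.5, 30.3 and 39.1 in the second. The rule that chose the genes used all 4 groups, and the ratio is made of the same values across separate tables, so these levels are a description.

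**Figure D2:**
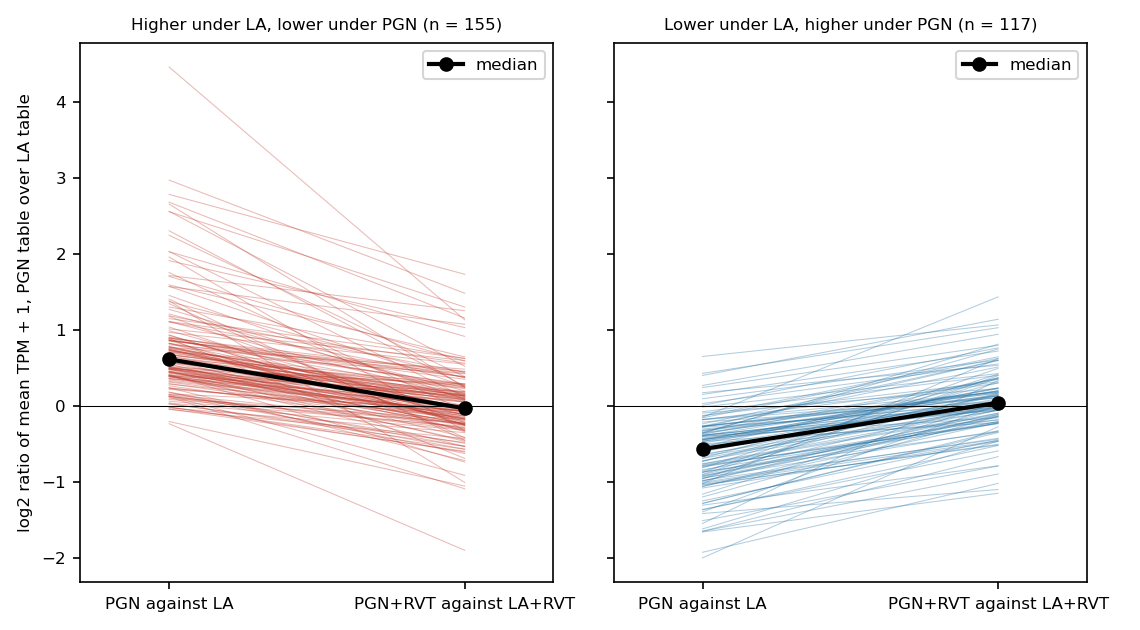
The log2 ratio of mean TPM + 1 in the PGN table over the LA table, without RVT (left end of each line) and with RVT (right end), 1 line per opposite gene and the median in black. The median went from 0.62 to -0.03 in the 155 genes higher under LA and lower under PGN, and from -0.57 to 0.05 in the 117 genes of the reverse class.

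Among secreted signals, CXCL1, CSF2, INHBA and NOG were higher with RVT under LA and lower under PGN. CXCL1 (ENSG00000163739, chromosome 4, 73869393 to 73871242, plus strand), a chemokine that draws neutrophils, had the largest difference of effects of the named opposite genes. Under LA it stood at 27.8, 30.9 and 32.2 TPM without and 43.7, 43.1 and 36.96 TPM with RVT, and under PGN at 753, 705 and 614 TPM without and 95.1, 94.3 and 86.4 TPM with RVT. No libraries overlapped within an arm, a condition for naming it, and every PGN+RVT library remained above every LA library. The log2 effects were 0.43 ± 0.09 under LA and -2.89 ± 0.09 under PGN (limma adjusted p = 0.00616 and 3.99e-09), a difference of 3.32 ± 0.12. CXCL1 shares near-identical sequence with CXCL2 and CXCL3, and the sources used here do not give how reads shared by them were assigned.

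CSF2 (ENSG00000164400, chromosome 5, 132073790 to 132076170, plus strand) encodes GM-CSF, a growth factor of myeloid cells. Under LA it went from 5.99, 4.05 and 3.05 TPM to 9.44, 9.92 and 9.31 TPM with RVT, and under PGN from 37.7, 31.3 and 29.8 TPM to 13, 12.4 and 9.17 TPM with RVT. The groups with RVT lay close to each other while those without lay far apart. Its log2 effects were 1.01 ± 0.18 and -1.44 ± 0.18 (limma adjusted p = 0.00314 and 0.000208). INHBA (ENSG00000122641, chromosome 7, 41667168 to 41705834, minus strand), the activin A subunit of the TGF-beta family, went from 5.76 ± 0.458 to 8.07 ± 0.814 TPM under LA and from 39.05 ± 3.34 to 12.1 ± 0.471 TPM under PGN (means ± SD, n = 3 per group). These are log2 effects of 0.42 ± 0.09 and -1.61 ± 0.09 (limma adjusted p = 0.00784 and 5.54e-07). NOG (ENSG00000183691, chromosome 17, 56593699 to 56595590, plus strand) encodes noggin, a secreted antagonist of bone morphogenetic proteins. It read 4.57, 4.27 and 4.79 TPM with LA against 12.9, 10.8 and 11.6 with RVT, and 9.52, 9.94 and 8.38 with PGN against 7.25, 6.78 and 6.78 with RVT. Its larger effect was under LA, at 1.2 ± 0.09 against -0.37 ± 0.09 under PGN (limma adjusted p = 8.51e-06 and 0.00987). IL23A, a subunit of interleukin 23, had smaller effects of 0.46 ± 0.11 and -0.36 ± 0.11, and it was no longer opposite in 7 of the 12 fits lacking 1 library: without any 1 of LA replicate 2, LA+RVT replicate 2, PGN replicates 1, 2 and 3 and PGN+RVT replicates 2 and 3 (limma adjusted p up to 0.124).

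EGFR, a pair of its ligands and an early target of the receptor were in the same class. HBEGF, a membrane-shed EGFR ligand, rose from 36.6 ± 0.518 to 46.4 ± 0.654 TPM under LA and fell from 90.1 ± 7.98 to 51.7 ± 0.5205 TPM under PGN, with log2 effects of 0.33 ± 0.06 and -0.79 ± 0.06. TGFA, another ligand, had effects of 0.33 ± 0.04 and -0.23 ± 0.04. The receptor gene EGFR stood at 64.4, 60.95 and 60.1 TPM with LA, 71.8, 74.2 and 70.8 with LA+RVT, 129, 120 and 124 with PGN and 69.7, 61.98 and 74.4 with PGN+RVT. Its fall under PGN (-0.85 ± 0.06, limma adjusted p = 3.57e-06) was larger than its rise under LA (0.22 ± 0.06, limma adjusted p = 0.0282). The rise was lost in 5 of the 12 fits lacking 1 library: without any 1 of LA replicates 2 and 3 and LA+RVT replicates 1, 2 and 3 (limma adjusted p up to 0.09296). Neither on the changed total nor without a filter was it called (limma adjusted p up to 0.0837). PHLDA1, a MAP kinase target that restrains receptor signalling, had effects of 0.33 ± 0.06 and -0.96 ± 0.06. AREG, the ligand amphiregulin, was lower under PGN (-0.90 ± 0.06) but stood at 107 ± 2.44 and 107 ± 1.09 TPM under LA, and its difference of effects was 0.91 ± 0.09 (limma adjusted p = 8.79e-05). In the list of EGF ligands, receptors and MAP kinase feedback, 27 genes were tested, 13 were higher and 2 lower under LA, and 6 and 7 under PGN. The difference was above 0 for 11 and below for 3, against 7.03% and 7.73% of all genes, and 4 were opposite, all in the first class. Over all tested genes, 10.9% were higher and 4.98% lower under LA, and 15.1% and 6.49% under PGN. The opposite classes held 1.02% and 0.771%. These shares are the background for the counts of every list below.

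TNFAIP3 and NFKBIE, a pair of NF-kB inhibitors, were in the same class. TNFAIP3 (ENSG00000118503, chromosome 6, 137867188 to 137883312, plus strand) encodes A20, a ubiquitin-editing inhibitor of NF-kB. It read 20.3, 15.6 and 16.9 TPM with LA, 25.7, 23.1 and 30.01 with LA+RVT, 81.3, 75.8 and 68.6 with PGN and 30.4, 27.01 and 28.5 with PGN+RVT. The ranges with RVT overlapped across the tables, and neither arm's groups overlapped, the latter a condition for naming it. Its log2 effects were 0.55 ± 0.11 and -1.36 ± 0.11 (limma adjusted p = 0.00578 and 8.49e-06). NFKBIE, which encodes the inhibitor I-kappa-B epsilon, went from 14.2 ± 0.883 to 19.1 ± 1.07 TPM and from 26.8 ± 2.32 to 14.9 ± 0.717 TPM, with effects of 0.40 ± 0.08 and -0.81 ± 0.08. IER3, an early gene that modulates cell survival, had effects of 0.26 ± 0.07 and -1.05 ± 0.07, and its rise under LA was lost in 5 of the 12 fits: without any 1 of LA replicates 1, 2 and 3 and LA+RVT replicates 2 and 3 (limma adjusted p up to 0.0874). It was also lost with equalised library medians, on the changed total and without a filter (limma adjusted p up to 0.0709).

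The full NF-kB list (subunits, feedback and adhesion) had 27 tested genes, of which 2 were higher and 6 lower under LA, and 0 higher and 19 lower under PGN. TNFAIP3 and NFKBIE were thus the only members higher under LA, while NFKBIA and BCL3 of the I-kappa-B family, named after their values were seen, were lower in both arms. The list's median effect was -0.05 under LA (-0.08 to -0.10 under the 3 scalings) and -0.61 under PGN, and the difference was above 0 for 15 genes and below for 0. Of 28 cytokine and chemokine genes, 5 were higher and 9 lower under LA, and 4 higher and 19 lower under PGN, with median effects of -0.13 and -1.44. The difference was above 0 for 19 of them and below for 2. IL1A, interleukin 1 alpha, was lower in both arms, by very different amounts, with effects of -0.36 ± 0.09 and -3.95 ± 0.09 and a difference of 3.58 ± 0.13 (limma adjusted p = 4.99e-08). IL1B was lower under PGN alone (-3.27 ± 0.09) and stood at 14.2 ± 1.02 and 12.7 ± 1.06 TPM under LA, with a difference of 3.12 ± 0.13 (limma adjusted p = 1.46e-07). IL1RN, which encodes the secreted antagonist of the interleukin 1 receptor, went the other way from the 3 opposite cytokine genes of the first class. It fell from 53.6, 50.2 and 53.7 to 47.2, 45.02 and 44.01 TPM under LA and rose from 47.4, 46.8 and 49.3 to 69.97, 70.5 and 75.1 TPM under PGN. The 3 PGN+RVT libraries were above all 9 others, and effects were -0.20 ± 0.05 and 0.58 ± 0.05 (limma adjusted p = 0.0131 and 9.37e-06). Its fall under LA was lost in 3 of the 12 fits: without any 1 of LA replicates 1 and 3 and LA+RVT replicate 3 (limma adjusted p up to 0.0525).

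Several transcription factors known to act downstream of these signals were also higher under LA and lower under PGN. FOSL1 (ENSG00000175592, chromosome 11, 65892049 to 65900573, minus strand), an AP-1 subunit of the Fos family, was at 154, 165 and 162 TPM with LA, 261, 293 and 268 with LA+RVT, 396, 439.6 and 396 with PGN and 213, 211 and 192 with PGN+RVT. PGN libraries were thus highest, and all LA+RVT libraries were above all PGN+RVT libraries. The effects were 0.77 ± 0.06 and -1.0 ± 0.06 (limma adjusted p = 1.36e-05 and 8.40e-07). CEBPB (ENSG00000172216, chromosome 20, 50190734 to 50192689, plus strand), a factor of inflammatory and adipogenic genes, read 37.9, 39.6 and 32.2 and 80.04, 68.1 and 62.8 TPM under LA, and 132, 148 and 98.8 and 76.8, 65.8 and 59.5 TPM under PGN. Its effects of 0.92 ± 0.15 and -0.88 ± 0.15 were close in size and opposite in sign, and the ranges with RVT overlapped across the tables. JUN, the AP-1 partner of the Fos proteins, had effects of 0.29 ± 0.05 and -0.24 ± 0.05, and the zinc finger factor KLF6 0.49 ± 0.08 and -0.43 ± 0.08. ZFP36L1, which promotes decay of AU-rich messenger RNAs, had 0.44 ± 0.04 and -0.74 ± 0.04. CITED4 (ENSG00000179862, chromosome 1, 40861051 to 40862366, minus strand), a coactivator that binds CBP and p300, went from 10.5 ± 0.558 to 17.04 ± 1.19 TPM under LA and from 27.6, 40.04 and 21.1 to 12.4, 13.04 and 11.2 TPM under PGN, with the PGN libraries widely spread. Its rise under LA was lost in 5 of the 12 fits: without any 1 of LA replicates 1, 2 and 3 and LA+RVT replicates 1 and 2 (limma adjusted p up to 0.0773). Removing the trend with GC content and length also ended it, as did testing without a filter (limma adjusted p up to 0.0667).

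Of 28 immediate early genes, 14 were higher and 4 lower under LA, and 9 and 10 under PGN. Median effects were 0.22 and 0.11, against 0.04 and 0.06 over all genes, and the second became 0.04 with equalised medians and 0.04 after removal of the trend with GC content and length. Of the 28, 5 were opposite, all in the first class, which held 1.02% of all tested genes. The difference was above 0 for 12 and below for 3. MYC, which drives growth genes, was higher under LA (0.71 ± 0.04, limma adjusted p = 1.08e-06) and not called under PGN (137 ± 3.34 and 129 ± 4.39 TPM). Its difference of effects was 0.80 ± 0.06 (limma adjusted p = 8.80e-06).

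**Figure D3:**
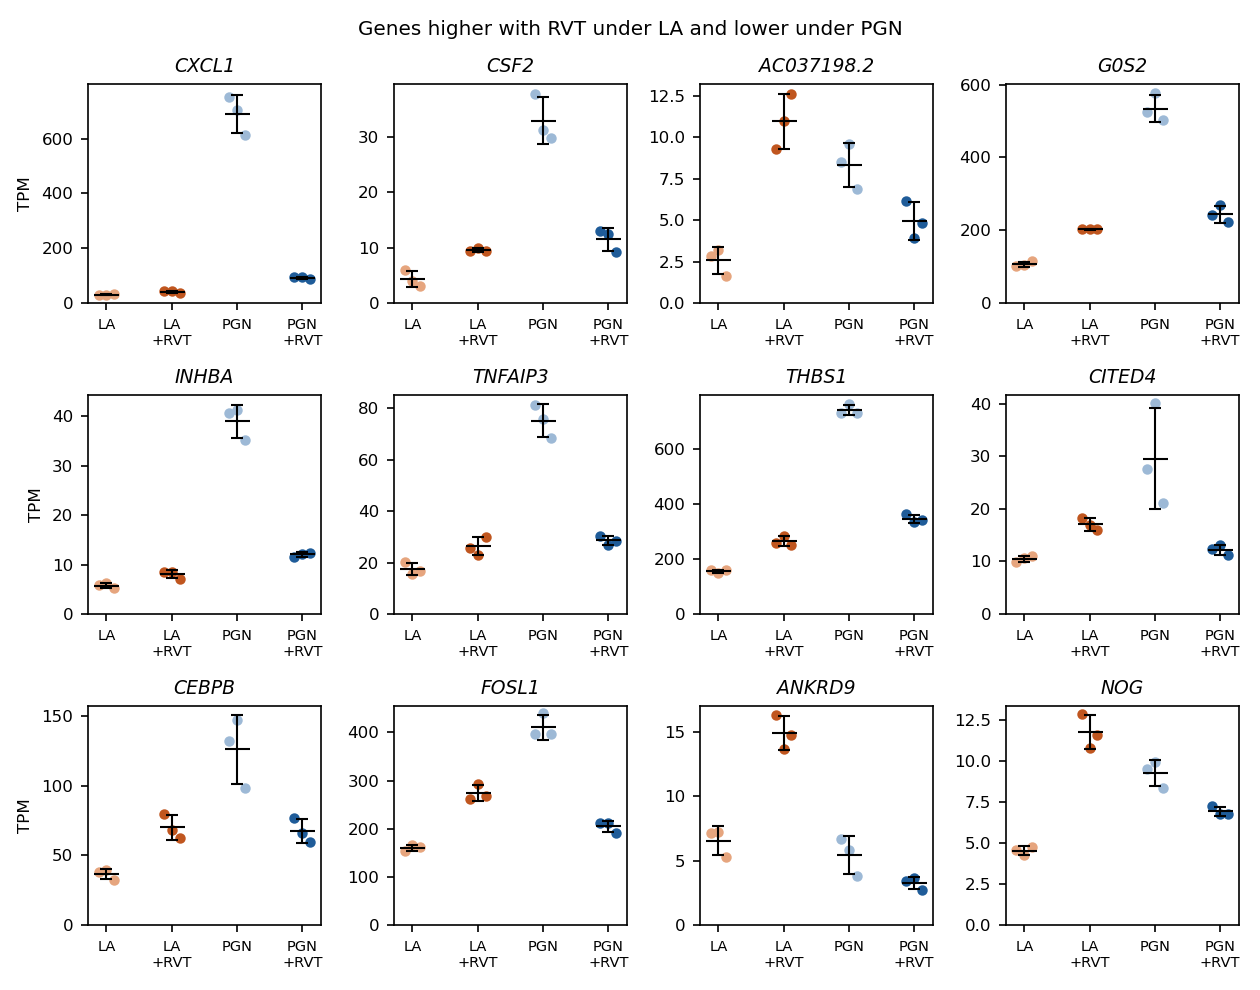
TPM in each library (points), with group mean and SD (bars, n = 3), of the 12 named genes with the largest difference of effects that were higher with RVT under LA and lower under PGN. The PGN group without RVT has the highest mean in each gene other than AC037198.2, ANKRD9 and NOG, where LA+RVT is highest.

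G0S2 (ENSG00000123689, chromosome 1, 209675420 to 209676388, plus strand) encodes an inhibitor of adipose triglyceride lipase, the enzyme that starts lipid droplet breakdown. It was at 103, 103 and 115 TPM with LA and 204, 202 and 203 TPM with LA+RVT. Under PGN it went from 524, 577 and 502 to 241, 268 and 222 TPM. The groups did not overlap in either arm, a condition for naming it, and the PGN+RVT libraries remained above the LA+RVT libraries. Its effects of 0.92 ± 0.07 and -1.13 ± 0.07 (limma adjusted p = 1.31e-05 and 1.26e-06) were among the largest of its class. Of 21 tested genes of lipid droplets, lipolysis and fatty acid oxidation, 3 were higher and 0 lower under LA, 9 higher and 4 lower under PGN, and G0S2 was the only opposite one. PPARG, the nuclear receptor of fat and sebaceous differentiation, was lower under PGN (-0.72 ± 0.06) and stood at 23 ± 1.19 and 22.3 ± 1.299 TPM under LA, with a difference of 0.67 ± 0.08 (limma adjusted p = 0.000312). ANKRD9 (ENSG00000156381, chromosome 14, 102501760 to 102509799, minus strand), a substrate adaptor of a ubiquitin ligase, went from 7.12, 7.27 and 5.3 to 16.3, 13.7 and 14.8 TPM under LA and from 6.71, 5.81 and 3.81 to 3.44, 3.64 and 2.74 TPM under PGN. LA+RVT libraries were highest and the PGN groups lay close together. Its fall under PGN (-0.57 ± 0.17, limma adjusted p = 0.0343) was lost in 4 of the 12 fits: without any 1 of PGN replicates 1 and 2 and PGN+RVT replicates 1 and 3 (limma adjusted p up to 0.117). ANKRD9 overlaps TECPR2 on the other strand.

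Genes of matrix and adhesion formed the largest group of opposite genes in any list, 7 of 27. All were higher under LA and lower under PGN, a class of 1.02% of all tested genes. THBS1 (ENSG00000137801, chromosome 15, 39581079 to 39599466, plus strand) encodes thrombospondin 1, a secreted matrix protein that activates TGF-beta. It read 159, 148 and 159 TPM with LA, 258, 285 and 250.3 with LA+RVT, 731, 765 and 731 with PGN and 362, 334 and 343 with PGN+RVT. The 4 groups did not overlap. Effects were 0.76 ± 0.05 and -1.1 ± 0.05 (limma adjusted p = 4.85e-06 and 1.63e-07). The antisense gene AC037198.2 (ENSG00000278621, chromosome 15, 39588357 to 39588882, minus strand) lies within THBS1 on the other strand and overlaps FSIP1 on its own strand. AC037198.2 stood at 2.84, 3.23 and 1.64 and 9.3, 11.02 and 12.6 TPM under LA, and at 8.54, 9.58 and 6.9 and 6.19, 3.92 and 4.81 TPM under PGN. LA+RVT was highest there, unlike THBS1, but the sources used here do not give strand use in the counting, so reads of AC037198.2 and THBS1 cannot be told apart. Its fall under PGN was lost in 4 of the 12 fits: without any 1 of PGN replicates 1 and 2 and PGN+RVT replicates 2 and 3 (limma adjusted p up to 0.125).

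The genes of a pair of laminin chains, which anchor epithelial cells to the basement membrane, were among them. LAMA3 went from 297 ± 3.82 to 474 ± 11.3 TPM under LA and from 774 ± 34.9 to 614 ± 22.8 TPM under PGN. LAMB3 went from 355 ± 9.12 to 559 ± 5.76 and from 770.1 ± 29.2 to 602 ± 14.3 TPM. The effects under LA were 0.67 ± 0.04 and 0.65 ± 0.03, and under PGN -0.33 ± 0.04 and -0.35 ± 0.03, in that order. No libraries overlapped within an arm in either, as in 149 of the 155 genes of the class. FN1, the matrix protein fibronectin, had effects of 0.63 ± 0.03 and -0.20 ± 0.03, and the hyaluronan receptor CD44 0.45 ± 0.04 and -0.18 ± 0.04. ITGA6, a laminin-binding integrin subunit, had 0.23 ± 0.07 and -0.46 ± 0.07, and its rise under LA was lost in 7 of the 12 fits: without any 1 of LA replicates 1, 2 and 3, LA+RVT replicates 1, 2 and 3 and PGN+RVT replicate 1 (limma adjusted p up to 0.121). It was also lost on the changed total and without a filter (limma adjusted p up to 0.104). In the whole list, 11 genes were higher and 4 lower under LA (10.9% and 4.98% of all genes), and 3 and 12 under PGN (15.1% and 6.49%). The difference was above 0 for 12 and below for 2. The list's median effect was 0.05 under LA and -0.12 under PGN, and the first became -0.006 after removal of the trend with GC content and length.

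Among proteases, PLAUR, the receptor of urokinase, was opposite with effects of 0.15 ± 0.04 and -0.21 ± 0.04, and its rise under LA was lost in 4 of the 12 fits: without any 1 of LA replicates 1 and 2 and LA+RVT replicates 2 and 3 (limma adjusted p up to 0.0796). It was also lost with equalised medians and on the changed total (limma adjusted p up to 0.172). The ligand gene PLAU was not opposite, at 157 ± 4.01 and 154 ± 3.69 TPM under LA and 239.5 ± 9.96 and 107 ± 1.74 TPM under PGN. Its difference of effects was 1.12 ± 0.05 (limma adjusted p = 3.49e-07). MMP9, a gelatinase, was higher under LA (1.29 ± 0.09) and not called under PGN (-0.18 ± 0.09), with a difference of 1.48 ± 0.13 (limma adjusted p = 4.18e-05). Of the 21 tested genes, 6 were higher and 7 lower under LA, 2 and 11 under PGN, and the difference was above 0 for 9 and below for 4.

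SPRR1B, a small proline-rich protein cross-linked into the cornified envelope, was higher under LA and lower under PGN; its promoter is printed above. It stood at 20.7, 17.03 and 19.2 TPM with LA, 28.9, 28.2 and 31.1 with LA+RVT, 155, 157 and 157 with PGN and 86.6, 89.7 and 76.4 with PGN+RVT. All PGN+RVT libraries were above all LA+RVT libraries, and effects were 0.61 ± 0.07 and -0.89 ± 0.07 (limma adjusted p = 0.000292 and 1.11e-05). Its relative SPRR3 had effects of 0.42 ± 0.12 and -0.84 ± 0.12, with LA and LA+RVT libraries overlapping, and lost its call in 10 of the 12 fits: without any 1 of LA replicates 1 and 3, LA+RVT replicates 1 and 2, PGN replicates 1, 2 and 3 and PGN+RVT replicates 1, 2 and 3 (limma adjusted p up to 0.149). With equalised medians, on the changed total and without a filter it was not opposite either (limma adjusted p up to 0.141). KRT17, a keratin of activated epidermis, had the reverse pattern (-0.32 ± 0.03 and 0.09 ± 0.03). Its rise under PGN was lost in 9 of the 12 fits: without any 1 of LA replicates 1 and 2, LA+RVT replicates 2 and 3, PGN replicates 1 and 2 and PGN+RVT replicates 1, 2 and 3 (limma adjusted p up to 0.119). It was also lost under all 3 scalings (limma adjusted p up to 0.708). FLG, the barrier protein filaggrin, was lower under PGN, from 6.37 ± 0.223 to 1.04 ± 0.0902 TPM, and stood at 0.19 ± 0.0346 and 0.0867 ± 0.0306 TPM under LA, with a difference of 1.72 ± 0.18 (limma adjusted p = 0.0001303). All libraries of the LA arm were far below 1 TPM for FLG, where the added 1 compresses any effect (-0.13 ± 0.13, with 45.6% of the level left). Its difference thus rests on the PGN arm. In all, 11 of 29 keratin and cornified envelope genes were higher and 6 lower under LA, 9 and 8 under PGN, and 3 were opposite. The difference was above 0 for 11 and below for 5. With equalised medians the counts under PGN became 5 higher and 8 lower.

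Smaller opposite effects were seen among stress, chaperone and metabolic genes. HSP90AB1, a constitutive cytosolic chaperone, went from 635, 654 and 645 to 819.8, 782 and 804 TPM under LA and from 990.02, 955 and 953 to 892, 882 and 894 TPM under PGN. Its libraries did not overlap in either arm, as in 149 of the 155 genes of its class. Effects were 0.31 ± 0.03 and -0.12 ± 0.03. Of 18 cytosolic chaperone genes, 16 were higher and 0 lower under LA, against 4 and 1 under PGN. The difference was above 0 for 13 and below for 0. With equalised medians the counts under PGN became 2 higher and 5 lower. The list's median effect was 0.49 under LA and 0.06 under PGN, and the second became -0.001 with equalised medians and -0.04 after removal of the trend with GC content and length. HSPH1 (0.95 ± 0.05 under LA and 0.12 ± 0.05 under PGN) and HSPA8 (0.83 ± 0.03 and -0.04 ± 0.03) were called under LA only, with differences of 0.84 ± 0.07 and 0.87 ± 0.05 (limma adjusted p = 2.54e-05 and 8.42e-07).

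PPP1R15A, which restores translation after stress, had effects of 0.22 ± 0.05 and -0.34 ± 0.05. With CEBPB it was 1 of 2 opposite genes among 30 of the ATF4 and unfolded protein response list (6 higher and 3 lower under LA, 5 and 8 under PGN). MT1E, a metal-binding metallothionein, had 0.23 ± 0.05 and -0.26 ± 0.05, and was the only opposite gene of 23 NRF2 targets and metallothioneins (7 higher and 0 lower under LA, 12 and 5 under PGN). TXNRD1, thioredoxin reductase, was higher under LA (0.33 ± 0.04) and not called under PGN (-0.12 ± 0.04, limma adjusted p = 0.0681). The glycolytic enzymes ENO1 (0.15 ± 0.02 and -0.14 ± 0.02) and PKM (0.11 ± 0.03 and -0.13 ± 0.03) and the oxygen-regulated transcription factor subunit HIF1A (0.26 ± 0.05 and -0.16 ± 0.05) were opposite by small amounts. The call of ENO1 was lost with equalised medians (limma adjusted p = 0.0847), and those of PKM and HIF1A without single libraries, PKM without LA replicates 2 and 3 and LA+RVT replicates 2 and 3 and HIF1A without LA replicates 1, 2 and 3, LA+RVT replicates 2 and 3, PGN replicates 1 and 3 and PGN+RVT replicates 2 and 3 (limma adjusted p up to 0.0878 and 0.1597). PKM was also lost under all 3 scalings (limma adjusted p up to 0.268). Of 33 hypoxia and glycolysis genes, 9 were higher and 2 lower under LA and 4 and 10 under PGN. Differences above 0 were called for 11 of them and below 0 for 4. CITED2, a hypoxia-induced brake on HIF1A, had the smallest p in that list, at 13.8 ± 2.05 and 13.7 ± 1.29 TPM under LA and 9.38 ± 1.11 and 28.5 ± 0.9902 TPM under PGN, a difference of -1.52 ± 0.16 (limma adjusted p = 9.67e-05). S100A11, a calcium-binding protein, was among the most abundant opposite genes, with effects of 0.13 ± 0.03 and -0.09 ± 0.03. Its fall under PGN was lost in 4 of the 12 fits: without any 1 of PGN replicates 2 and 3 and PGN+RVT replicates 1 and 3 (limma adjusted p up to 0.105). It was also lost with equalised medians and on the changed total (limma adjusted p up to 0.141).

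Genes lower under LA and higher under PGN included ZNF750 and MAB21L4. ZNF750 (ENSG00000141579, chromosome 17, 82829435 to 82840578, minus strand), a transcription factor of late epidermal differentiation, read 6.55, 6.16 and 6.38 TPM with LA, 3.64, 3.18 and 3.58 with LA+RVT, 1.58, 1.58 and 2.26 with PGN and 3.35, 3.2 and 4.04 with PGN+RVT. LA was highest and PGN lowest, and the groups with RVT overlapped across the tables. ZNF750 overlaps TBCD on the other strand, and strand use in the counting is not known. Effects were -0.72 ± 0.12 and 0.70 ± 0.12 (limma adjusted p = 0.00206 and 0.00172). MAB21L4 (ENSG00000172478, chromosome 2, 240886048 to 240896889, minus strand), a gene of squamous differentiation whose promoter is printed above, read 10.6, 6.47 and 6.65 and 3.76, 4.54 and 3.67 TPM under LA, and 6.87, 6.45 and 7.82 and 13.2, 13.8 and 10.6 TPM under PGN. LA and PGN overlapped without RVT, and PGN+RVT libraries lay far above LA+RVT libraries. Effects were -0.81 ± 0.16 and 0.75 ± 0.16 (limma adjusted p = 0.00657 and 0.00741).

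The rule for named genes left out OVOL1, TINCR, ELF3 and ID3, which are given here after their values were seen. Genes of epithelial differentiation did not all go this way. In the keratin and cornified envelope list, SPRR1B and SPRR3 were in the other class and KRT17 in this one. The difference there was above 0 for 11 genes and below for 5. OVOL1, a factor that stops proliferation as epidermal cells differentiate, had effects of -0.24 ± 0.06 and 0.60 ± 0.06. TINCR, a differentiation RNA of the epidermis, had -0.39 ± 0.10 and 0.46 ± 0.10, and ELF3, an epithelial ETS factor, -0.56 ± 0.04 and 0.22 ± 0.04. ID3, an inhibitor of helix-loop-helix factors induced by bone morphogenetic proteins, went from 183, 176 and 190.3 to 140.2, 154 and 141 TPM under LA and from 95.98, 94.7 and 102 to 146, 149 and 148 TPM under PGN. The effects were -0.34 ± 0.05 and 0.59 ± 0.05, with no overlap in either arm, as in 115 of the 117 genes of the class. The fall of OVOL1 under LA was lost without any 1 of LA replicates 1 and 2 and LA+RVT replicates 1, 2 and 3 (limma adjusted p up to 0.09203), and that of TINCR without any 1 of LA replicates 1 and 2 and LA+RVT replicates 1 and 3 (limma adjusted p up to 0.0757). ELF3 was no longer called under PGN once the trend with GC content and length was removed (limma adjusted p = 0.146).

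ALDH3B2 (ENSG00000132746, chromosome 11, 67662162 to 67681200, minus strand), a dehydrogenase of lipid-derived aldehydes, had the largest difference of effects among the named genes of this class, -1.67 ± 0.26. It stood at 9.51, 7.85 and 8.07 TPM with LA and 3.86, 4.61 and 3.99 TPM with LA+RVT, and at 2.29, 4.77 and 3.95 TPM with PGN and 6.38, 8.34 and 6.15 TPM with PGN+RVT. The highest PGN library did not reach the lowest PGN+RVT library, as the rule for naming the gene required. Effects were -0.88 ± 0.18 and 0.80 ± 0.18 (limma adjusted p = 0.00809 and 0.00989), and the second was not called on the 6 PGN libraries alone (limma adjusted p = 0.0713). TJP3 (ENSG00000105289, chromosome 19, 3708109 to 3750813, plus strand), the tight junction scaffold ZO-3, went from 39.4, 37.9 and 34.1 to 22.5, 23.5 and 20.9 TPM under LA and from 18.3, 17.9 and 22.1 to 28.8, 29.7 and 28.7 TPM under PGN. CLIC5 (ENSG00000112782, chromosome 6, 45880827 to 46080348, minus strand), a chloride intracellular channel protein tied to the actin cortex, went from 18.03, 16.3 and 17.6 to 11.8, 11.9 and 11.7 TPM and from 6.76, 7.07 and 7.79 to 11.5, 12.1 and 13.1 TPM. In CLIC5 the groups with RVT came to nearly the same level from either side. Effects were -0.71 ± 0.08 and 0.56 ± 0.08 for TJP3 and -0.51 ± 0.07 and 0.69 ± 0.07 for CLIC5 (limma adjusted p = 0.000636 and 5.18e-05 for the latter).

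PSCA (ENSG00000167653, chromosome 8, 142670308 to 142682724, plus strand), a lipid-anchored surface glycoprotein of epithelia, was the most abundant of the 11 genes plotted for this class. It read 434, 394 and 387 TPM with LA, 236, 212 and 238 with LA+RVT, 281, 304 and 363 with PGN and 390.2, 403 and 416 with PGN+RVT. LA and PGN+RVT libraries overlapped and LA+RVT libraries were lowest. Effects were -0.82 ± 0.08 and 0.36 ± 0.08 (limma adjusted p = 7.19e-05 and 0.00964), and the second was not called on the 6 PGN libraries alone (limma adjusted p = 0.0532). RHOV (ENSG00000104140, chromosome 15, 40872214 to 40874289, minus strand), a small GTPase, and FGD3 (ENSG00000127084, chromosome 9, 92947451 to 93036236, plus strand), an exchange factor of the GTPase CDC42, had effects close in size in both arms, -0.60 ± 0.11 and 0.52 ± 0.11, and -0.65 ± 0.10 and 0.57 ± 0.10. RHOV stood at 15.98 ± 0.888 and 10.3 ± 1.72 TPM under LA and at 12.3 ± 1.47 and 18.03 ± 0.104 TPM under PGN. FGD3 stood at 13.9 ± 2.34 and 8.44 ± 0.4204 TPM, and at 7.51 ± 0.2101 and 11.7 ± 0.793 TPM.

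EGFL8 and MARCO were less firmly called. EGFL8 (ENSG00000241404, chromosome 6, 32164583 to 32168281, plus strand), a secreted protein with EGF-like repeats, had effects of -0.57 ± 0.14 and 0.81 ± 0.14, and its fall under LA was lost in 4 of the 12 fits: without any 1 of LA replicates 1 and 3 and LA+RVT replicates 1 and 3 (limma adjusted p up to 0.0723). It overlaps the readthrough gene PPT2-EGFL8, so its reads may be split. MARCO (ENSG00000019169, chromosome 2, 118942166 to 118994660, plus strand), a scavenger receptor for bacteria, had -0.48 ± 0.14 and 0.58 ± 0.14. The LA libraries of MARCO read 11.1, 16.2 and 13.6 TPM and those with RVT 10.4, 10.1 and 7.78 TPM, so that the lowest without RVT lay just above the highest with it. Its call was lost in 5 of the 12 fits: without any 1 of LA replicates 2 and 3, LA+RVT replicates 2 and 3 and PGN+RVT replicate 1 (limma adjusted p up to 0.135). PER1 (ENSG00000179094, chromosome 17, 8140472 to 8156506, minus strand), a repressor of the circadian clock, was at 26.9, 27.5 and 30.4 TPM with LA, 22.4, 19.3 and 16.4 with LA+RVT, 8.29, 8.31 and 9.01 with PGN and 13.5, 14.5 and 13.4 with PGN+RVT. Every LA library was above every PGN library, with or without RVT, and the gap narrowed with RVT. Effects were -0.53 ± 0.10 and 0.64 ± 0.10 (limma adjusted p = 0.00355 and 0.000776).

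**Figure D4:**
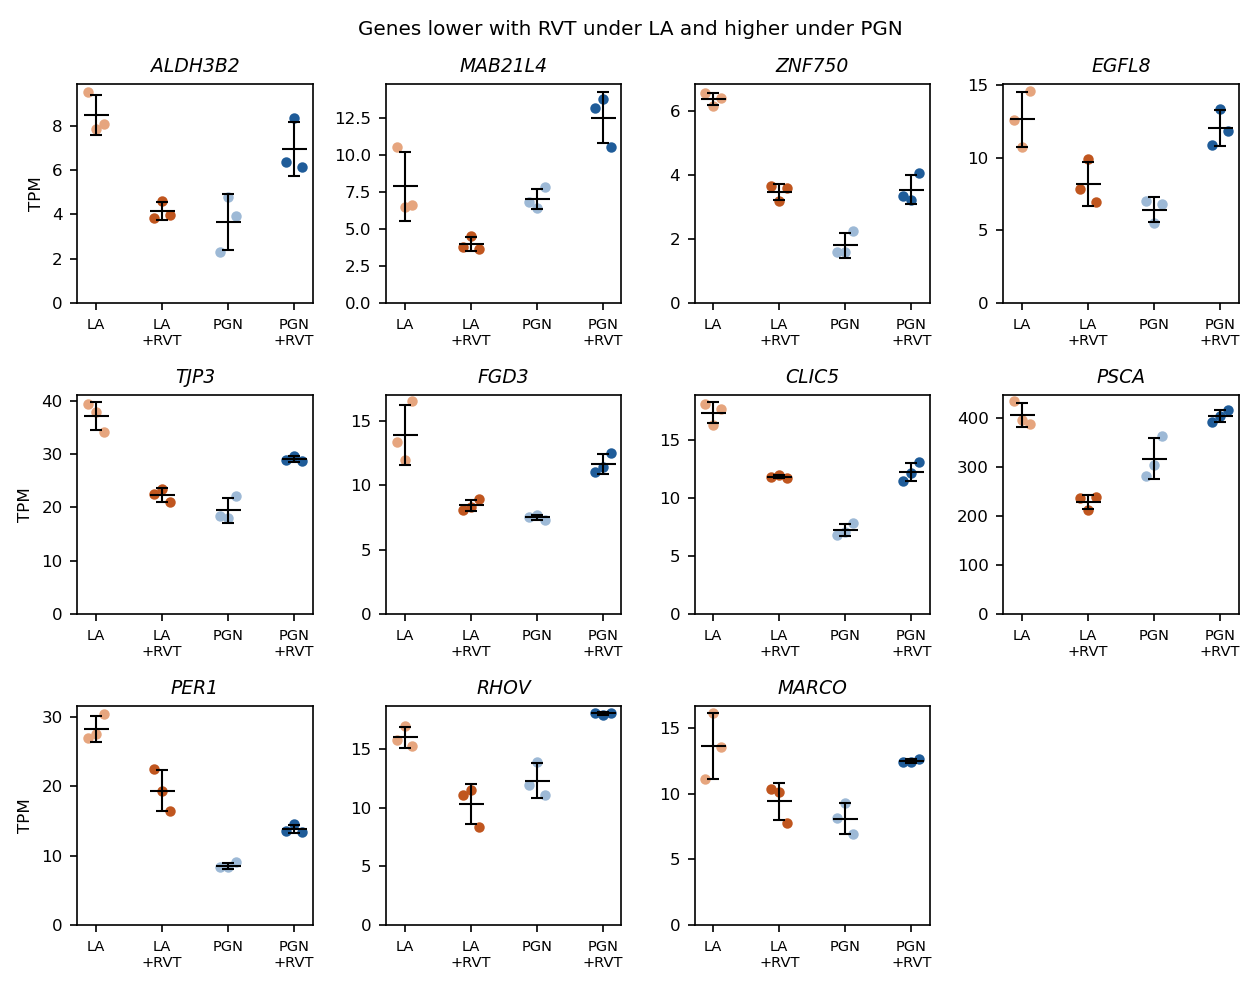
TPM in each library (points), with group mean and SD (bars, n = 3), of 11 named genes with large differences of effects that were lower with RVT under LA and higher under PGN. In each panel the LA libraries lie above the LA+RVT libraries and the PGN libraries below the PGN+RVT libraries, with no overlap within an arm. The genes were chosen by this pattern.

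SREBF1, which encodes SREBP1, the driver of fatty acid synthesis, had effects of -0.23 ± 0.07 and 0.38 ± 0.07, and its fall under LA was lost in 10 of the 12 fits: without any 1 of LA replicates 1, 2 and 3, LA+RVT replicates 1, 2 and 3, PGN replicate 2 and PGN+RVT replicates 1, 2 and 3 (limma adjusted p up to 0.152). Most members of the lipid synthesis lists rose under PGN and were not called under LA. Of 29 genes of cholesterol synthesis and uptake, 6 were higher and 2 lower under LA, and 25 higher and 1 lower under PGN. The median effects were 0.06 (0.009 to 0.016 under the 3 scalings) and 0.56, and the difference was above 0 for 0 genes and below for 23, against 7.73% of all genes. HMGCS1, the synthase of the HMG-CoA that sterols are built from, stood at 183, 177 and 176 and 182, 179 and 171 TPM under LA and at 114, 109 and 113 and 195, 192 and 208 TPM under PGN. The PGN+RVT libraries were above all LA libraries and the PGN libraries below them. The difference was -0.83 ± 0.06 (limma adjusted p = 6.55e-06). In fatty acid and triglyceride synthesis, 5 of 28 genes were higher and 1 lower under LA, and 17 and 0 under PGN. Differences above 0 were called for 0 of them and below 0 for 12. FADS2, the desaturase that makes sapienic acid in sebaceous glands, went from 56.7 ± 6.304 to 119.7 ± 6.82 TPM under PGN and stood at 75.7 ± 2.62 and 79.8 ± 4.48 TPM under LA. Its difference of effects was -0.99 ± 0.10 (limma adjusted p = 0.000112).

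Of 40 interferon-stimulated genes, 4 were opposite, all lower under LA and higher under PGN, a class of 0.771% of all tested genes. IFITM3, which blocks entry of viruses through the membrane, read 642, 622 and 628 TPM with LA, 467, 457 and 479 with LA+RVT, 362, 404 and 440.5 with PGN and 511, 526 and 522 with PGN+RVT. LA libraries were highest and PGN libraries lowest. Effects were -0.43 ± 0.05 and 0.37 ± 0.05 (limma adjusted p = 0.000379 and 0.000616). IFITM2 had -0.54 ± 0.08 and 0.36 ± 0.08, but its sequence is near-identical to that of IFITM3. ISG15, a ubiquitin-like modifier, went from 231, 237 and 232 to 176, 196 and 186 TPM under LA and from 185, 182 and 188 to 239, 244 and 235 TPM under PGN. LA and PGN+RVT libraries of ISG15 thus lay at one level and LA+RVT and PGN libraries at a lower one. Its effects were -0.33 ± 0.04 and 0.37 ± 0.04 (limma adjusted p = 0.000216 and 5.32e-05). B2M, the light chain of MHC class I, was the most abundant of the 4, at 4270.2 ± 38.2 and 3786 ± 85.03 TPM under LA and 1602 ± 65.6 and 1769 ± 48.2 TPM under PGN. Of 40 tested interferon-stimulated genes, 2 were higher and 12 lower under LA, and 16 higher and 2 lower under PGN. The median effects were -0.08 (-0.12 under each of the 3 scalings) and 0.23, and the difference was above 0 for 0 genes and below for 17.

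Antimicrobial and p53 genes also gave members of this class. S100P, a calcium-binding protein, went from 782 ± 42.4 to 565 ± 21.1 TPM under LA and from 645 ± 48.01 to 858 ± 34.9 TPM under PGN, with effects of -0.47 ± 0.06 and 0.41 ± 0.06. SLPI, an antimicrobial protease inhibitor, had effects of -0.18 ± 0.03 and 0.26 ± 0.03. S100A9, a calprotectin subunit, was lower in both arms, with effects of -0.88 ± 0.03 and -0.17 ± 0.03 and a difference of -0.71 ± 0.04 (limma adjusted p = 2.39e-06). Of 20 genes of this list, 1 was higher and 13 lower under LA, 4 and 7 under PGN, and the difference was above 0 for 1 and below for 10. Among 28 p53 targets, GDF15, a stress cytokine, had effects of -0.46 ± 0.07 and 0.31 ± 0.07. TP53I3, a quinone reductase, had -0.31 ± 0.07 and 0.36 ± 0.07, and FDXR, ferredoxin reductase, -0.29 ± 0.07 and 0.38 ± 0.07. PLK2, a kinase of the stress response, was in the other class (0.35 ± 0.06 and -0.50 ± 0.06). In the whole list, 5 were higher and 5 lower under LA and 8 and 4 under PGN, the latter becoming 3 and 7 with equalised medians. Differences above 0 were called for 6 members and below 0 for 8. The call of FDXR under LA was lost in 2 of the 12 fits: without any 1 of LA replicate 3 and LA+RVT replicate 2 (limma adjusted p up to 0.0667). Removing the trend with GC content and length ended that of GDF15 under PGN (limma adjusted p = 0.07399).

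**Figure D5:**
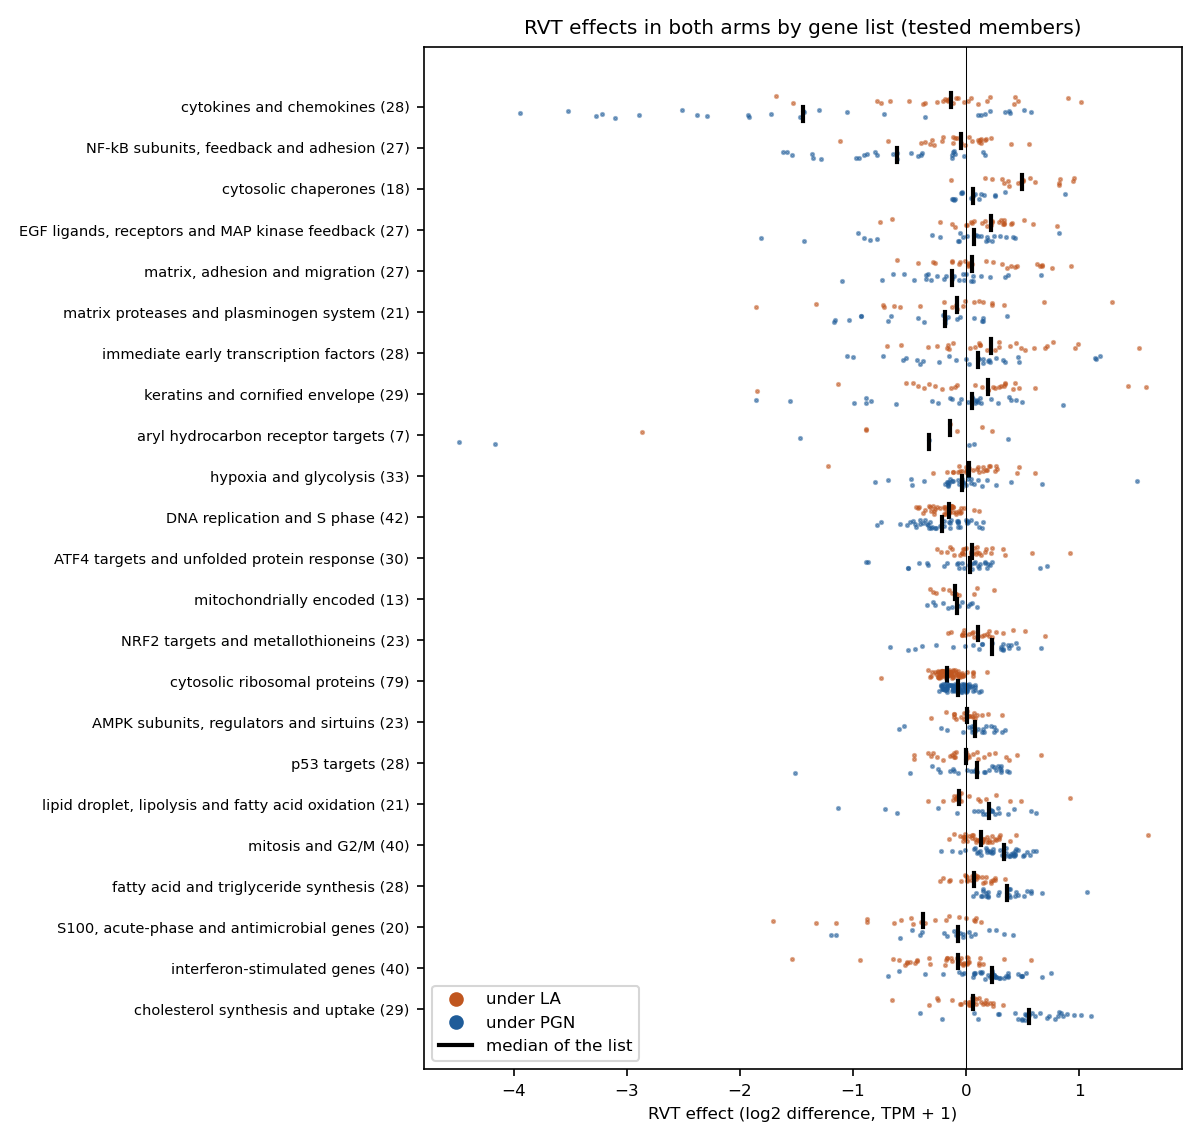
Effect of RVT (log2 difference of TPM + 1) of each tested member of 23 gene lists under LA (orange) and under PGN (blue), with the median of each list as a black bar and the number of tested members in brackets, ordered by the median difference of effects. Cytokines stand at the top, with medians of -0.13 and -1.44, and cholesterol genes at the bottom, with medians of 0.06 and 0.56.

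In the plot of the gene lists, 17 of the 23 lists held at least 1 opposite gene, and 34 of the 155 and 13 of the 117 opposite genes were in a list. Over all tested genes, 10.9% were higher and 4.98% lower under LA, and 15.1% and 6.49% under PGN. Of 42 DNA replication genes, 0 were higher and 17 lower under LA, and 0 and 23 under PGN, with the difference above 0 for 4 and below for 1. MCM6, a helicase subunit, was lower in both (-0.41 ± 0.04 and -0.79 ± 0.04). Of 40 mitotic genes, 14 were higher and 0 lower under LA, and 28 and 0 under PGN, with the difference above 0 for 1 and below for 15. PRC1, a protein of the spindle midzone, had the smallest p of the difference there, with effects of -0.11 ± 0.04 under LA, which was not called (limma adjusted p = 0.106), and 0.35 ± 0.04 under PGN. Of 79 ribosomal protein genes, 1 was higher and 55 lower under LA, and 0 and 31 under PGN, with the difference above 0 for 1 and below for 24. The latter became 9 with equalised medians and 9 after removal of the trend with GC content and length. Of 13 mitochondrially encoded genes, 1 was higher and 6 lower under LA, and 0 and 5 under PGN. Among 7 aryl hydrocarbon receptor targets, the cytochrome P450 genes CYP1A1 (-0.88 ± 0.18 and -4.17 ± 0.18) and CYP1B1 (-2.87 ± 0.13 and -4.49 ± 0.13) were lower in both arms. Their differences of 3.28 ± 0.25 and 1.62 ± 0.18 were called (limma adjusted p = 1.46e-05 and 0.000191). CYP1A1 went from 1.36 ± 0.41 to 0.277 ± 0.176 TPM under LA and from 23.5 ± 1.19 to 0.377 ± 0.253 TPM under PGN. With RVT 20.3% of its level remained under LA and 1.61% under PGN. At such low levels the added 1 understates the fall under LA and so widens the difference.

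AMP-activated kinase is named in the series title. Of 23 genes of AMPK subunits, regulators and sirtuins, 0 were opposite, against 1.79% of all genes, and 13.04% had a called difference, against 14.8%, both shares near those over all genes. Of the 23, 0 were higher and 1 lower under LA, 2 and 2 under PGN, and the difference was above 0 for 2 and below for 1. PRKAA1, the main catalytic subunit gene, stood at 99.6 ± 10.6 and 114 ± 9.05 TPM under LA and 77.1 ± 8.96 and 87.3 ± 8.18 TPM under PGN, and the difference of 0.02 ± 0.14 did not pass (limma adjusted p = 0.964). For PRKAA2 it was -0.07 ± 0.18 and for SIRT1, a deacetylase linked to resveratrol, -0.24 ± 0.14 (limma adjusted p = 0.844 and 0.321). Given these standard errors, differences of this size could not be told from 0, and RNA levels do not measure kinase activity.

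A few opposite genes outside the lists and the naming rule are given for scale, chosen after their values were seen. Genes with large differences of effects but below 5 TPM in every group were AC108863.1, AC108488.1 and GSTM3, a glutathione transferase at 3.86 TPM with LA, 1.53 with LA+RVT, 0.667 with PGN and 2.203 with PGN+RVT. Among the abundant ones, the nucleolar protein gene NPM1 stood at 1069, 1178, 1987 and 1619 TPM in the same order (effects 0.14 and -0.29). GSTP1, another glutathione transferase, stood at 1707, 1564, 1421 and 1689 TPM (-0.13 and 0.25). TGM2, a transglutaminase, had effects of 0.24 and -0.28, and PTGES, which makes prostaglandin E2, -0.55 and 0.13. F3, the tissue factor that starts clotting, had 0.62 and -0.35, and the architectural factor HMGA2 0.73 and -0.63. The call of NPM1 was lost without any 1 of LA replicates 1, 2 and 3 and LA+RVT replicates 1, 2 and 3 (limma adjusted p up to 0.111), that of AC108863.1, which was not tested without PGN replicate 3, without any 1 of LA replicates 1, 2 and 3, LA+RVT replicates 2 and 3, PGN replicate 1 and PGN+RVT replicates 1 and 3 (limma adjusted p up to 0.0844), and that of AC108488.1 without any 1 of LA replicates 1, 2 and 3, LA+RVT replicates 2 and 3, PGN replicates 1, 2 and 3 and PGN+RVT replicates 1 and 2 (limma adjusted p up to 0.154). With equalised medians NPM1, TGM2, PTGES and AC108488.1 were not called in both arms (limma adjusted p up to 0.1596, 0.0605, 0.569 and 0.168 over the other alternatives).

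Of 65 opposite genes named by the rule or a list, with OVOL1, TINCR, ELF3 and ID3, 45 kept both calls in every fit that leaves out 1 library and 20 lost one in at least 1 such fit. With each arm on its own 6 libraries 16 of the 65 lost a call, among them CD44, IFITM2 and B2M (limma adjusted p = 0.0688, 0.0646 and 0.0654), and without a filter on low values 14 did. Over all 272, 117 kept both calls in all 12 fits without 1 library (79 and 38 of the classes), 169 under the 3 scalings (107 and 62) and 88 under all 21 alternatives (68 and 20). Nothing in the sources used here says whether the replicates came from separate culture days, so the spread behind each p-value is that between these libraries.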

How the data were processed

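RNA sequencing of 12 SZ95 libraries was analysed from 2 tables of TPM that the authors deposited, 1 column per library with 2 decimals, per the file headers. The submitters' processing notes list RSEM 1.3.1, DESeq2 1.24.0, HISAT2 2.1.0 and, as the build, GRCh38.p13, without saying what each did. The annotation release and the strand setting were not given in those sources. Other named genes that overlap protein-coding genes on the other strand include PSCA, SREBF1, TP53I3, PLAU, FADS2 and CYP1B1. The tables held 60671 and 60666 genes. They were joined on the gene identifier, which gave 60630, of which 1432 (140 of those tested) carry different names in the tables. TPM holds shares of a library and no depth, and a rise of some genes lowers the TPM of the rest.

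Groups came from the sample titles. Values were taken as log2(TPM + 1), which understates changes of low genes, and a gene was tested if its mean reached 1 TPM. One limma 3.58.1 fit (R 4.3.3, trended prior variance, 4 group means) gave both effects of RVT and their difference, each tested on both sides, and calls were made at a Benjamini-Hochberg adjusted p under 0.05. The fit was tested on simulated data. Errors are SE for effects and SD for TPM, n = 3. Named genes were, in each opposite class, the 12 largest differences whose highest group reached 5 TPM and no overlap in either arm, up to 4 members with the smallest p of each list, opposite list members, and PRKAA1, PRKAA2 and SIRT1. Some genes that these rules name are not reported here. The members, the 23 gene lists and 6 marker lists were chosen with earlier results of these data known. Positions, GC content and length came from GENCODE 29 on GRCh38, and 99.1% of tested genes had them. Alternatives were other scalings, pseudocounts and filters, a robust variance, a replicate block, each arm by itself, and 12 fits without 1 library.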

Additional observations from a re-analysis of the deposited data

Results flagged for a closer look

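The response to RVT differed between the stimuli for 2240 genes, as the test of the LA effect minus the PGN effect with limma at an adjusted p under 0.05 found. Stimulus and table coincide, so the difference belongs to both. For the genes named in the text, the difference of effects on the log2(TPM + 1) scale was as follows. Among genes called higher under LA and lower under PGN it was 3.32 for CXCL1, 2.46 for CSF2, 2.42 for AC037198.2, 2.05 for G0S2, 2.04 for INHBA, 1.91 for TNFAIP3, 1.86 for THBS1, 1.81 for CITED4 and 1.81 for CEBPB. Next came 1.76 for FOSL1, 1.65 for ANKRD9, 1.57 for NOG, 1.5 for SPRR1B, 1.31 for IER3, 1.29 for PHLDA1, 1.26 for SPRR3, 1.2 for NFKBIE and 1.18 for ZFP36L1. Then followed 1.12 for HBEGF, 1.07 for EGFR, 1.01 for LAMB3, 1.0 for LAMA3, 0.92 for KLF6, 0.85 for PLK2, 0.83 for FN1, 0.82 for IL23A and 0.69 for ITGA6. Smaller ones were 0.63 for CD44, 0.56 for TGFA, 0.56 for PPP1R15A, 0.53 for JUN, 0.50 for MT1E, 0.43 for HSP90AB1, 0.41 for HIF1A, 0.36 for PLAUR and 0.29 for ENO1. The smallest were 0.24 for PKM and 0.22 for S100A11.

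Among genes called lower under LA and higher under PGN it was -1.67 for ALDH3B2, -1.55 for MAB21L4, -1.42 for ZNF750, -1.38 for EGFL8, -1.27 for TJP3, -1.22 for FGD3, -1.2 for CLIC5, -1.18 for PSCA and -1.17 for PER1. Next came -1.12 for RHOV, -1.06 for MARCO, -0.93 for ID3, -0.90 for IFITM2, -0.88 for S100P, -0.85 for TINCR, -0.84 for OVOL1, -0.80 for IFITM3 and -0.78 for IL1RN. Then followed -0.78 for ELF3, -0.77 for GDF15, -0.70 for ISG15, -0.67 for TP53I3, -0.67 for FDXR, -0.61 for SREBF1, -0.44 for SLPI, -0.42 for KRT17 and -0.32 for B2M. The genes of both classes were chosen by the tests of both arms, so these values are descriptions.

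Genes not called in opposite directions, but with a called difference above 0, had 3.58 for IL1A, 3.28 for CYP1A1, 3.12 for IL1B, 1.72 for FLG, 1.62 for CYP1B1, 1.48 for MMP9, 1.12 for PLAU, 0.91 for AREG and 0.87 for HSPA8. Next came 0.84 for HSPH1, 0.80 for MYC, 0.67 for PPARG, 0.45 for TXNRD1 and 0.37 for MCM6. CYP1A1 and FLG were near or below 1 TPM under LA, where the added 1 compresses effects, so their differences rest largely on the PGN arm. Below 0, the values were -1.52 for CITED2, -0.99 for FADS2, -0.83 for HMGCS1, -0.71 for S100A9 and -0.46 for PRC1.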

How the results depend on the processing

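With each arm fitted on its own 6 libraries, 2170 genes were called under PGN in place of 3270, and 2397 under LA in place of 2416. In that setting 173 were opposite in place of 272, and without a filter on low values 181 were opposite. Over the 12 fits without 1 library, opposite genes numbered 178 to 288, called differences 1714 to 2250, and calls 1688 to 2738 under LA and 2480 to 3172 under PGN. Fewer libraries or more genes enter these fits, and the causes of the changes were not tested. The other alternatives changed each of these 4 counts by less than 1.5 times. Same-numbered libraries with and without RVT did not deviate together over all tested genes (r from -0.066 to 0.043 over the 6 pairs). Whether they shared a culture day was not tested. A replicate block gave 1730 called differences, 1933 and 2766 calls in the arms and 209 opposite genes, 185 of them among the 272.

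Of 1737 values of the 87 named genes under alternatives, 1730 kept their direction and their side of the threshold. The 7 that turned were not called in any case. The difference for PRKAA1 became -0.043 with the GC and length trend removed, -0.0032 on the changed total, and ran from -0.077 to 0.093 over the 12 fits without 1 library, 4 of them below 0 (-0.058 without LA replicate 2, -0.040 without LA+RVT replicate 1, -0.077 without PGN replicate 1 and -0.057 without PGN+RVT replicate 2), and that for PRKAA2 ran from -0.11 to 0.0084, the latter without LA+RVT replicate 2; the cause was not tested. The pseudocount limits what can be said of genes near 1 TPM. Depth limits are unknown because TPM keeps none.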

Other observations

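The following opposite genes were in no list, are described nowhere above, and were chosen after their values were seen. Of genes higher under LA and lower under PGN, PTHLH, which encodes parathyroid hormone-related protein, went from 8.44 to 11.2 TPM under LA and from 64.3 to 39.6 TPM under PGN (log2 effects 0.37 and -0.68). ETS1, an ETS transcription factor, had effects of 0.44 and -0.95. TGFBR2, a TGF-beta receptor, had 0.27 and -0.46, and PMEPA1, a TGF-beta target that restrains the pathway, 0.33 and -0.78. VDR, the vitamin D receptor, had 0.31 and -0.24, and its call was lost without any 1 of PGN replicate 3 and PGN+RVT replicates 1 and 2 (limma adjusted p up to 0.0722). RUNX1, a Runt factor of skin and blood, had 0.28 and -0.26, lost without any 1 of LA replicates 1, 2 and 3, LA+RVT replicates 2 and 3, PGN replicates 1 and 3 and PGN+RVT replicates 1 and 2 (limma adjusted p up to 0.1504), and also with equalised medians and on the changed total (limma adjusted p up to 0.1297).

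Of genes lower under LA and higher under PGN, CRABP2, a retinoic acid carrier, stood at 341 and 258 TPM under LA and 236 and 276 TPM under PGN (log2 effects -0.40 and 0.23), a call lost with equalised medians (limma adjusted p = 0.0502). ID1, a relative of ID3, had effects of -0.31 and 0.21, lost with equalised medians and without the trend over GC content and length (limma adjusted p up to 0.119). The envelope proteins PPL (periplakin) and SCEL (sciellin) had -0.21 and 0.39, and -0.29 and 0.28. UBE2L6, the conjugating enzyme of ISG15, had -0.22 and 0.40, and TXNIP, a glucose-responsive inhibitor of thioredoxin, -0.22 and 0.29. The call of SCEL was lost without any 1 of LA replicates 1, 2 and 3, LA+RVT replicate 2, PGN replicates 2 and 3 and PGN+RVT replicate 3 (limma adjusted p up to 0.0725), that of UBE2L6 without any 1 of LA replicates 1 and 2 and LA+RVT replicates 2 and 3 (limma adjusted p up to 0.0716) and that of TXNIP without any 1 of LA replicates 1 and 2 and LA+RVT replicate 3 (limma adjusted p up to 0.0632). The TPM of TXNIP was 219 with LA and 68.7 with PGN, the levels of separate tables.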
